A study of Mus musculus with 12 samples.

Results

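The stefin A cluster is a row of neighboring genes on mouse chromosome 16 that encode small inhibitors of cysteine proteases. The 8 genes considered here were *Csta1*, *Stfa1*, *Stfa2*, *Stfa2l1*, *Stfa3*, *BC100530*, *BC117090* and *2010005H15Rik*, chosen by name. Of these, 6 were among the 14533 genes of the deposited count table, while *Stfa2l1* and *2010005H15Rik* were not listed and were not analysed here. The table holds only genes above 0.5 CPM (counts scaled for library size) in at least 6 of the 12 mice. *BC117090* was above that level in 6 of 6 Pparg-/-epi mice and in 3 of 6 WT mice, so it entered the table through the Pparg-/-epi group, and the other 5 listed genes were above it in all 12 mice. The genes were proposed because they were higher in Pparg-/-epi mice in these same libraries, so the differences between genotypes are given as a description without p-values.

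RNA was sequenced from frozen epidermis scraped from the dorsal skin of 12 untreated mice in the C57BL/6 background, with 1 library per mouse. The 6 WT mice (3 females and 3 males) and the 6 Pparg-/-epi mice (4 females and 2 males) were 8 to 13 weeks old, and all carried homozygous floxed *Pparg* alleles. *Pparg* encodes PPARγ, a lipid-activated nuclear receptor. Only the Pparg-/-epi mice carried Cre recombinase (Cre+/-, against Cre-/- in WT), driven by the cytokeratin 14 promoter. That promoter is active in basal keratinocytes and in the hair follicles and sebaceous glands that arise with them, so recombination was not limited to the interfollicular epidermis. Per the study's methods, the skin was non-lesional, the controls were siblings, and scraping went on until the superficial dermis was reached.

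Stefins are cystatins that stay inside the cell, where they bind papain-like proteases such as cathepsins B, H, L and S tightly but reversibly. Human skin relies on the gene *CSTA*, whose product is part of the cornified envelope and whose loss causes a peeling skin disorder, whereas in the mouse this gene has been duplicated into a cluster. Mouse stefins of the cluster are known from keratinocytes as well as from neutrophils and their precursors.

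The cluster spans 335 kb of mm10, from 36119946 to 36455392 on chromosome 16, between the first base of *Csta1* and the last base of *Stfa3*. *Csta1* (36119946 to 36131189), *BC117090* (36321665 to 36334332), *BC100530* (36359382 to 36367570), *Stfa2* (36403946 to 36408363) and *Stfa3* (36450537 to 36455392) lie on the minus strand, and *Stfa1* (36277148 to 36285371) lies on the plus strand. Each has 3 exons in the deposited annotation, with 387 to 441 exonic bases, except *Csta1* with 2731. A seventh listed gene of the same kind, *Gm5416* (named Csta3 in RefSeq; 36210403 to 36217788, plus strand), lies inside the span and was kept among the other cystatins.

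The members are close copies of each other, which bears on how their reads could be counted. The coding sequence is shown over the part that encodes the first binding loop, a segment conserved in cystatins that enters the protease. Capitals mark the pattern CAANNNGTNNNNGGA, the bases that the cluster's genes share at 3 codons of this segment, searched on the coding strand, and the sequences are from the GENCODE M21 transcripts of GRCm38, 5′ to 3′. Transcripts of 5.65% of 21901 coding genes hold this pattern in any frame.
Csta1: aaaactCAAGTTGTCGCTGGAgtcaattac
Stfa1: aaaactCAAGTCGTCGCTGGAgaaaatatc
BC117090: aaaactCAAGCCGTCGCTGGAgaaaatatc
BC100530: aaaactCAAGCCGTCGCTGGAgaaaatatc
Stfa2: aaagttCAAGTCGTCCAAGGActaaattac
Stfa3: aaatctCAAGTCGTTGCTGGAcaaaatttg

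Over these 30 bases *BC117090* and *BC100530* had 0 differences, *Stfa1* differed from *BC100530* at 1 base, *Csta1* and *Stfa3* at 6 bases each and *Stfa2* at 10. Over the whole coding sequence, *Stfa1* and *BC100530* were 98.0% identical, *BC117090* and *BC100530* 95.2%, and *Stfa2* and the unlisted *Stfa2l1* 96.5%. *Csta1* was at most 84.4% identical to any other gene compared. Because the authors discarded reads that mapped to more than 1 place, the share of 75-base stretches (the read length) that recur in another gene's transcripts was taken for each member. It was 22.4% for *BC100530*, 20.4% for *BC117090*, 10.7% for *Stfa1*, 5.79% for *Stfa2* and 0% for *Csta1* and *Stfa3*. The levels of *BC100530*, *BC117090* and *Stfa1* are therefore uncertain relative to each other. That of *Stfa2* is affected through the unlisted *Stfa2l1*, while those of *Csta1* and *Stfa3* are not affected in this way. A further 13.4% of the stretches of *BC100530* lie in the overlapping antisense gene *Gm15845*, and the strand setting of the counting is not given in the sources used here.

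Libraries held 10120840 to 16947632 counts for WT and 11272135 to 18851255 for Pparg-/-epi, and 3 counts were worth 0.156 to 0.320 CPM. For *Pparg* itself the WT libraries had 5 to 269 counts and the Pparg-/-epi libraries 16 to 107. Since these were summed over the whole gene, including exons that Cre leaves in place, they do not check the genotype labels. Keratinocyte markers were abundant and 7 of 8 were listed, with summed levels of 17192 to 43312 CPM (WT) and 28382 to 51489 CPM (Pparg-/-epi). Of 22 neutrophil markers 14 were not listed, among them the granule genes *Ngp*, *Camp*, *Ltf*, *Mpo* and *Elane*. The 6 listed markers of sebocytes, the cells of the oil glands, summed to between 2.41 and 10.2 CPM in Pparg-/-epi and between 19.5 and 935 CPM in WT mice. Of these *Scd3*, *Fa2h* and *Awat1*, named after their values were seen, entered the table through the WT group. Among 6 listed markers of mast cells and basophils, *Fcer1a*, also named afterwards, entered it through the Pparg-/-epi group and is not counted. The other 5 were altered and higher, against 5.19% of all genes. All 6 summed to 16.1 to 85.3 CPM in WT and to 112 to 225 CPM in Pparg-/-epi mice. Altered were 0 of 8 macrophage and 0 of 6 fibroblast markers, against 10.3% of all genes. The part of such cells in the stefin levels was not tested. In bulk scrapings, fewer cells of a type and less RNA per cell cannot be told apart. Leaving out WT replicate 2 raised the number of genes altered by genotype from 1493 to 2249.

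*BC100530* and *Stfa3* carried most of the cluster's additional reads in Pparg-/-epi mice, *Stfa1*, *Stfa2* and *BC117090* were higher at far lower levels, and *Csta1* differed least. Genes were called altered where the log2 fold change (log2FC) reached 0.6 in size with an adjusted p below 0.05 in edgeR's quasi-likelihood test over all genes. By this rule 5 of the 6 listed members were altered, all higher in Pparg-/-epi mice. Over all genes 10.3% were altered, 5.19% higher and 5.08% lower. For the same 5 members the lowest Pparg-/-epi mouse exceeded the highest WT mouse, which held for 3.95% of all genes (7.90% were apart in either direction). Each of the 5 had a log2FC above 2, as did 1.05% of all genes among those altered and higher. The median log2FC was 2.76 over the 6 members and -0.01 over all genes. These counts follow from how the genes were chosen.

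*BC100530*, a stefin A-like gene named Cstdc5 in RefSeq, ranged from 5.78 to 89.0 CPM with a median of 25.3 CPM in WT mice. In Pparg-/-epi mice it ranged from 293 to 471 CPM with a median of 364 CPM. The groups were far apart, and the WT values were themselves spread widely. The WT mean was 33.3 ± 32.5 CPM and the Pparg-/-epi mean 370 ± 64.3 CPM (SD, n = 6 each), a log2FC of 3.48 (standard error 0.61).

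*Stfa3*, which encodes stefin A3, had the largest log2FC of the members, 4.25 (standard error 0.56), and ranked 6 among the 754 higher genes. The WT values were 2.76 to 36.6 CPM (median 8.57) and the Pparg-/-epi values 178 to 271 CPM (median 234). The groups did not overlap, and WT replicate 1 alone held the highest WT value. Without WT replicate 1 the log2FC was 5.01. The mean rose 19.0-fold, from 12.1 ± 12.6 to 229 ± 36.1 CPM (SD, n = 6 each).

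*Stfa1*, the gene of stefin A1, had WT values of 0.637 to 9.80 CPM (median 2.07) and Pparg-/-epi values of 17.8 to 32.0 CPM (median 23.4), a log2FC of 2.72 (standard error 0.59). *Stfa2*, the gene of stefin A2, had WT values of 0.605 to 5.37 CPM (median 1.08) and Pparg-/-epi values of 9.10 to 15.1 CPM (median 12.0), a log2FC of 2.81 (standard error 0.47). Neither gene overlapped between the groups, although WT replicate 5 was several times above the other WT mice for *Stfa2*, whose log2FC was 3.57 without that mouse. *BC117090*, another stefin A-like gene, had 0 to 16 counts per WT library and 22 to 51 per Pparg-/-epi library, a log2FC of 2.61 (standard error 0.69), or 3.26 without WT replicate 5. Its single WT library without a read, WT replicate 2, had a floor of 0.159 CPM.

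*Csta1* was the exception. Its WT values of 154 to 350 CPM (median 234) and Pparg-/-epi values of 199 to 508 CPM (median 341) overlapped. Its log2FC was 0.58 (standard error 0.27), below the size required, and it was not counted as altered. Within the Pparg-/-epi group the values fell into a lower set of 199 to 250 CPM (replicates 7 to 9) and a higher set of 432 to 508 CPM (replicates 10 to 12). RNA integrity numbers were 8.6, 8.5 and 7.7 in the first set and 7.7, 5.7 and 7.1 in the second. The first set was female and the second held both males, at ages of 12, 13 and 13 weeks against 8, 12 and 10 weeks. The leading part of the mouse names also differed between the sets. What that part of a name stands for is not given in the sources used here, and these differences cannot be told apart. With the RNA integrity number in the model the log2FC of *Csta1* was 0.81 and the gene was counted as altered.

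**Figure D1:**
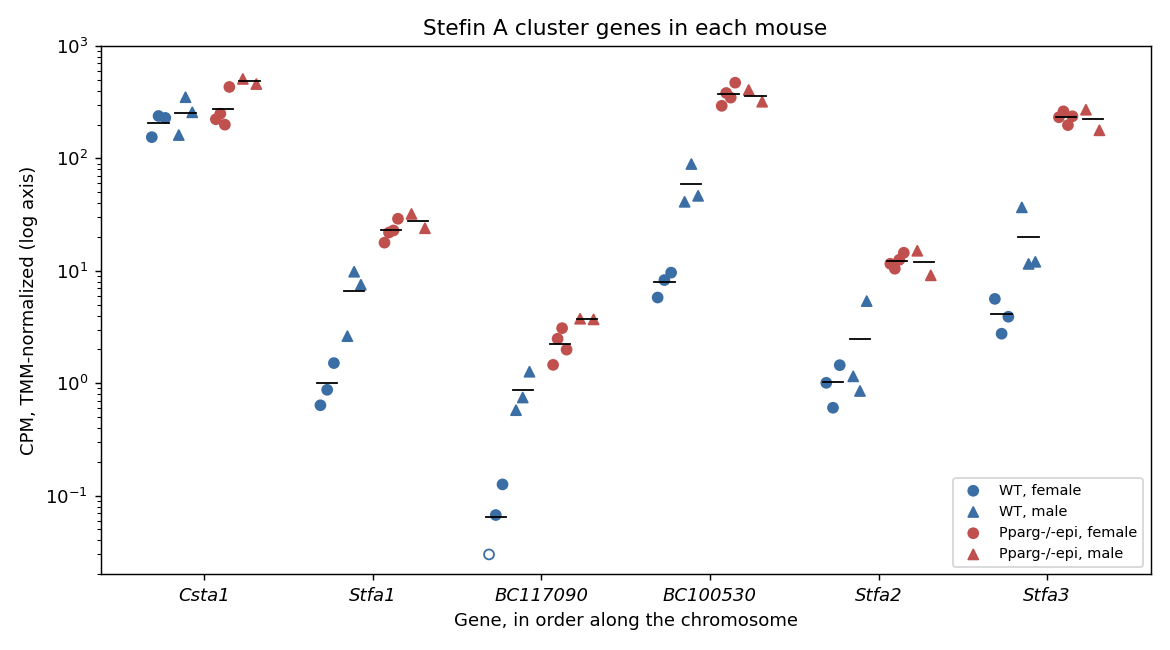
CPM (log axis) of the 6 listed members in each mouse, with WT in blue, Pparg-/-epi in red, females as circles, males as triangles and short lines at the mean of each genotype and sex. The open circle at the lower edge is the WT mouse with 0 reads of BC117090. For every gene but Csta1 the red points lie above all blue points, and for Stfa1, BC117090, BC100530 and Stfa3 the 3 WT males lie above the 3 WT females.

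The make-up of the cluster's expression differed between the genotypes. Levels were divided by exonic length here, since *Csta1* is several times longer than the other members and takes a larger share of plain CPM for that reason. *Csta1* accounted for 50.1 ± 21.8% of the members' summed CPM per kilobase (kb) in WT mice and for 7.75 ± 2.74% in Pparg-/-epi mice (SD, n = 6 each). Its WT share ran from 23.5% to 75%. The share of *BC100530* went from 29.7 ± 15.6% to 51.8 ± 3.16%, and that of *Stfa3* from 13.8 ± 11.1% to 34.6 ± 4.16%. The summed level was 204 ± 115 CPM per kb in WT and 1616 ± 242 CPM per kb with the deletion. In plain CPM the share of *Csta1* was 83.4 ± 11.7% and 34.1 ± 8.45%. Because shares are bound to each other, a larger share of 1 member lowers those of the rest.

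**Figure D2:**
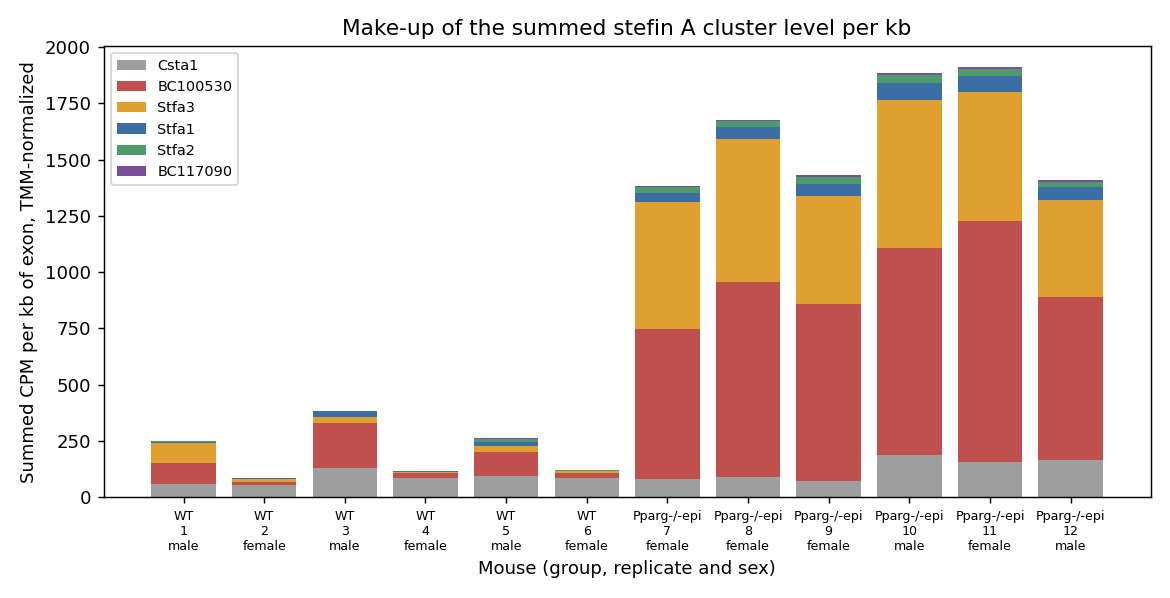
Summed CPM per kb of exon of the 6 listed members in each mouse, stacked by gene. The WT bars are 87.2 to 385 CPM per kb high, and the Pparg-/-epi bars, 1384 to 1910 CPM per kb high, are largely BC100530 and Stfa3.

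The order of the levels was also taken per kb of exon. In Pparg-/-epi mice the order was *BC100530* (838 ± 146 CPM per kb), *Stfa3* (557 ± 87.7), *Csta1* (126 ± 49.7), *Stfa1* (58.8 ± 12.3), *Stfa2* (28.8 ± 5.45) and *BC117090* (7.09 ± 2.40), with SD over 6 mice. Each gene was above the next in 6 of 6 mice. In WT mice *Csta1* (84.8 ± 26.2 CPM per kb) and *BC100530* (75.6 ± 73.6) could not be ordered, as *BC100530* was the higher in all 3 males and *Csta1* in all 3 females. They were followed by *Stfa3* (29.3 ± 30.7 CPM per kb), which *BC100530* exceeded in 5 of 6 WT mice, then *Stfa1* (9.15 ± 9.26), *Stfa2* (4.11 ± 4.26) and *BC117090* (1.20 ± 1.28). For *BC100530*, *BC117090*, *Stfa1* and *Stfa2* these levels leave out the reads that could not be placed.

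The wide spread of the WT values followed the sex of the mice, a pattern that was noticed in the data and then tested. *BC100530* was at 41.0, 89.0 and 46.4 CPM in the WT males and at 5.78, 8.27 and 9.63 CPM in the WT females. *Stfa1* was at 2.62, 9.80 and 7.51 CPM in WT males and at 0.637, 0.874 and 1.51 CPM in WT females. *Stfa3* was at 36.6, 11.5 and 12.0 CPM in WT males and at 5.63, 2.76 and 3.90 CPM in WT females. *BC117090* had 9, 7 and 16 counts in WT males and 0, 1 and 2 counts in WT females. The latter are under the floor of 3 counts, so its estimates by sex rest on few reads. For these 4 of the 6 members every WT male lay above every WT female, which was so for 5.24% of all genes. *Stfa2* and *Csta1* overlapped between the sexes.

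In a fit with a separate mean for each genotype and sex, 1 of the 6 members was altered between WT males and WT females. It was *BC100530*, with a log2FC of 2.90 for males over females (standard error 0.32, edgeR quasi-likelihood test, adjusted p = 0.0107). Over all genes 0.0344% were altered in this contrast. These 5 genes included the X-linked *Xist* and *Kdm6a* and the long noncoding RNA genes *Meg3* and *Mirg*, which are named because they were seen in the list. The other members had log2FC of 2.71 for *Stfa1* (standard error 0.47, adjusted p = 0.204), 3.63 for *BC117090* (standard error 0.69, adjusted p = 0.225), 2.29 for *Stfa3* (standard error 0.44, adjusted p = 0.243), 1.27 for *Stfa2* (standard error 0.61, adjusted p = 0.588) and 0.30 for *Csta1* (standard error 0.33, adjusted p = 0.798). Before adjustment 4 of the 6 members had p under 0.05, against 8.82% of all genes. The call of *BC100530* was lost without WT replicate 2, 4 or 6, each a female (adjusted p = 0.0636, 0.0872 and 0.0541), while the log2FC stayed between 2.47 and 3.08 whichever mouse was left out. With edgeR's likelihood ratio test 4 members were altered in this contrast, among 25 of the 14533 genes, where the quasi-likelihood test called 5 genes.

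Several values moved with sex among the WT mice. The RNA integrity number was 7.4, 6.1 and 5.9 in WT males and 8.6, 7.1 and 6.2 in WT females, and with it in the model *BC100530* kept a log2FC of 2.71 (edgeR quasi-likelihood test, adjusted p = 0.0061). Keratinocyte markers summed to 42689 to 43312 CPM in WT males and to 17192 to 38161 CPM in WT females, with *Krt5*, *Krt1* and *Lor*, 3 of the 7 listed, higher in every male. Fibroblast markers summed to 7331 to 34533 CPM in WT males and to 1014 to 10471 CPM in WT females. Of the 8 listed neutrophil markers only *Cxcr2*, a chemokine receptor gene, was higher in every WT male. The part of these markers in the difference was not tested.

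In Pparg-/-epi mice both males were above all 4 females for 2 of the 6 members, *BC117090* (3.69 and 3.74 CPM against 1.46 to 3.09 CPM) and *Csta1* (458 and 508 CPM against 199 to 432 CPM), which was so for 16.1% of all genes. The other 4 overlapped between the sexes. *BC100530* was at 319 and 406 CPM in the males and between 293 and 471 CPM in the females, and *Stfa3* was at 178 and 271 CPM in the males and between 198 and 262 CPM in the females. The log2FC for males over females was -0.04 (standard error 0.31) for *BC100530*, -0.05 (0.42) for *Stfa3*, -0.02 (0.59) for *Stfa2* and 0.29 (0.43) for *Stfa1*. *BC117090* had 0.72 (0.50) and *Csta1* 0.81 (0.34). None of the 6 members was altered by sex within Pparg-/-epi mice, where 0.0138% of all genes were. The males were 8 and 10 weeks old and the females 12 or 13, so sex and age cannot be told apart within this group. With only 2 males, differences of the size of these standard errors could not be detected. Only *Csta1* had an unadjusted p under 0.05 (0.0363), which 10.5% of all genes had.

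The estimated genotype difference was larger in the female mice for 5 of the 6 members, although no interaction passed the adjusted threshold. *BC100530* had a log2FC of 5.56 (standard error 0.35) among females and 2.63 (0.33) among males. *Stfa3* had 5.81 (0.49) and 3.47 (0.46), *BC117090* 5.01 (0.65) and 2.10 (0.55), *Stfa1* 4.5 (0.48) and 2.08 (0.46), and *Stfa2* 3.57 (0.61) and 2.28 (0.63). The female estimate of *BC117090* rests on WT females with 0, 1 and 2 counts. *Csta1* had 0.41 (0.31) among females and 0.92 (0.36) among males. The Pparg-/-epi males were also younger than the Pparg-/-epi females, so sex and age cannot be told apart in these contrasts. Among females 5 of 6 members were altered, against 6.56% of all genes, and among males 2 of 6 (*BC100530* and *Stfa3*), against 1.56% of all genes.

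The difference between the sexes in the genotype effect was tested as an interaction, which the choice of members did not use. Its log2 estimate, the genotype effect in males less that in females, was -2.94 for *BC100530* (standard error 0.45, unadjusted p = 4.76e-05, adjusted p = 0.692 in edgeR's quasi-likelihood test). For 4 of the 6 members (*BC100530*, *Stfa1*, *Stfa3* and *BC117090*) the unadjusted p was under 0.05, as it was for 5.10% of all genes. None of the 14533 genes passed the adjusted threshold, so the interaction failed the correction for each member. The younger age of the Pparg-/-epi males bears on this test as well. For a sex effect common to both genotypes, 0 of 6 members were altered by edgeR's quasi-likelihood test and 0 by its likelihood ratio test. The quasi-likelihood test called only 2 of the 14533 genes (0.0138%), so a count of 0 does not set the members apart. In that test 5 of the 6 had an unadjusted p under 0.05, against 16.1% of all genes.

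**Figure D3:**
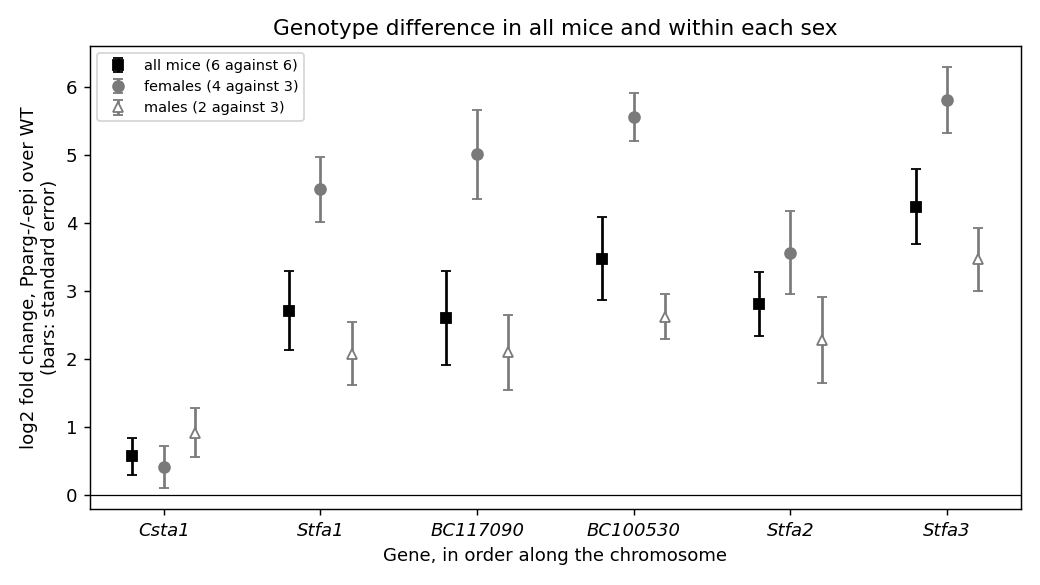
log2FC of Pparg-/-epi over WT for the 6 listed members in all mice (squares), in females (filled circles) and in males (open triangles), with standard errors as bars. For all but Csta1 the female estimate lies above the male estimate, most widely for BC100530, BC117090, Stfa1 and Stfa3.

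Within genotype, the members did not all vary together from mouse to mouse. Pearson's r of log2 CPM less the genotype mean, over the 12 mice, was 0.95 between *Stfa1* and *BC100530*, 0.90 between *Stfa1* and *BC117090* and 0.87 between *BC117090* and *BC100530*. *Stfa3* had an r of 0.73 with *BC100530* and of -0.09 with *Csta1*, and *Stfa2* had 0.10 to 0.54 with the others. The 3 genes that varied most alike are also the 3 with the most similar coding sequences, and the correlations share the split of WT mice by sex. The genes outside the cluster most like the members' mean by this measure were *Csnk1g2* (a casein kinase gene, r = 0.96), *Sephs2* (selenophosphate synthetase, r = 0.95), *Aes* (a transcriptional corepressor, r = 0.95), *Park7* (r = 0.95) and *Pebp1* (r = 0.94). In each of these 5 genes every WT male lay above every WT female, which was so for 5.24% of all genes. The members' mean carries that split, so picking genes by likeness to it favors this outcome. These 5 genes hardly shared the members' genotype difference, as their log2FC ran from -0.04 (*Pebp1*) to 0.46 (*Sephs2*).

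The promoters were compared because 5 members were higher together. RefSeq windows from 250 bases before to 50 bases after the gene start (GRCm38.p6) were given for 9 genes of the cluster, and *BC117090* had no entry. The longest run around the TATA-like letters TTTAAA that *Stfa1*, *BC100530*, *Stfa2* and *Stfa3* shared was ACCTTTAAAACCC, of 13 letters. It was also in the windows of *Gm5416*, *Gm5483* and the unlisted *Stfa2l1*, thus in 7 of the 9, and not in those of *Csta1* and *2010005H15Rik*. Over all 32851 windows, searched on both strands, 9 (0.0274%) held it, the 7 of the cluster included. The run was picked from the cluster's own windows, so the match describes copied sequence and implies no site. Capitals mark it in the 30 bases shown for the listed members, each 5′ to 3′ on the strand of its gene.
Stfa1, chr16:36277107-36277136, plus strand: tttcggatACCTTTAAAACCCtgagtctca
BC100530, chr16:36367561-36367590, minus strand: ttacagatACCTTTAAAACCCcgagtctca
Stfa2, chr16:36408374-36408403, minus strand: ttacagaaACCTTTAAAACCCtgagtctct
Stfa3, chr16:36455405-36455434, minus strand: tacagataACCTTTAAAACCCcgagtctca

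The run began 33 bases before the RefSeq gene start in *Stfa1*, 32 in *Stfa2*, 34 in *Stfa3* and 12 in *BC100530*. The inner TTTAAA, a palindrome, was in 13.2% of all windows and in that of *Csta1* as well.

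The neighbors of the cluster were compared next. Of the 10 nearest listed genes, 5 on each side, 3 were altered, against 10.3% of all genes. *Fam162a*, the gene of a mitochondrial protein, was higher (from 50.5 ± 9.99 to 117 ± 21.2 CPM, log2FC 1.21, edgeR quasi-likelihood test, adjusted p = 0.000434), and *Wdr5b* (log2FC -0.71, adjusted p = 0.0238, a call lost in 3 of the 12 fits that left out 1 mouse) and *Iqcb1* (log2FC -0.90, adjusted p = 0.00709) were lower. *Ccdc58*, the nearest gene before *Csta1*, had a log2FC of 0.50 (standard error 0.12, adjusted p = 0.0176 in the same test). It passed the p threshold but not the size required. *Cd86*, the nearest after *Stfa3*, had a log2FC of 0.14 (standard error 0.25). The other 5 neighbors had log2FC between -0.02 and 0.38 and were not altered. Inside the span, *Gm5416* had 0 to 13 counts per WT library and 21 to 43 per Pparg-/-epi library, with a log2FC of 2.81 (standard error 0.80).

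**Figure D4:**
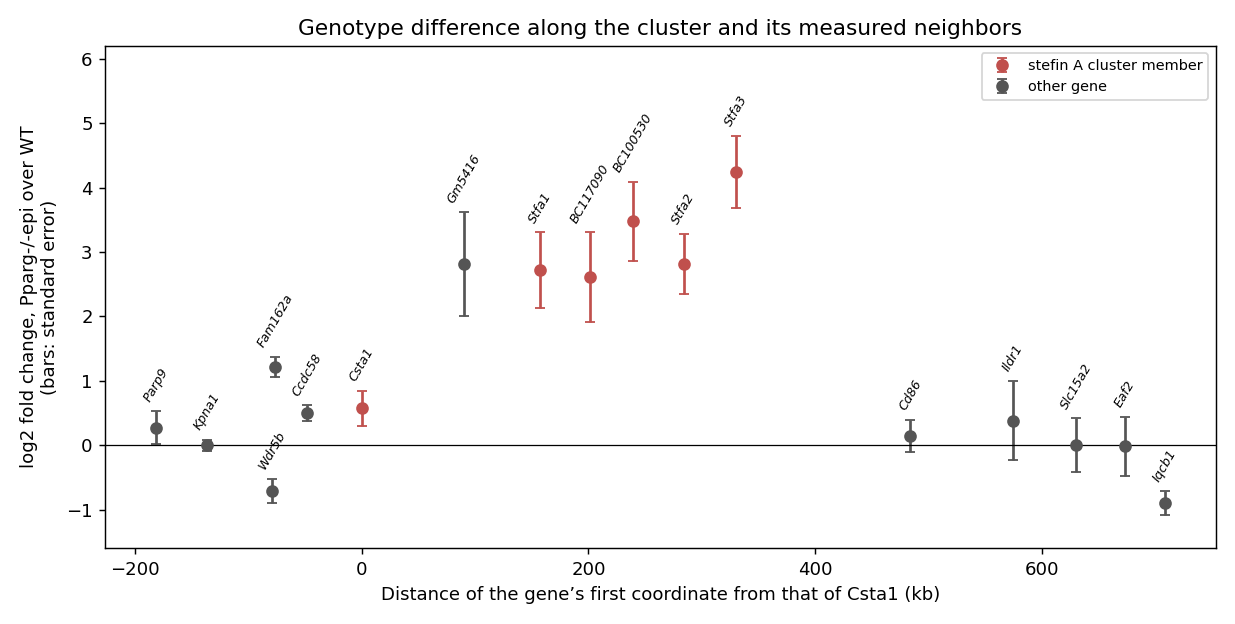
log2FC of Pparg-/-epi over WT, with standard errors as bars, against the distance in kb from the start of Csta1, for the 6 listed members (red), Gm5416 and the 5 nearest listed genes on each side (gray). The genes from Gm5416 to Stfa3, of which Gm5416 and BC117090 entered the table through the Pparg-/-epi group, lie between 2.61 and 4.25, while Csta1 and the 10 flanking genes lie between -0.90 and 1.21.

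Of 19 other cystatin-family genes 7 were listed. *Gm5416* was above 0.5 CPM in 1 of 6 WT and 6 of 6 Pparg-/-epi mice, and *Kng2*, a kininogen gene, in 6 of 6 WT and 0 of 6 Pparg-/-epi mice. Each thus entered the table through the group where it is high, and its difference is given without a test: the log2FC was 2.81 for *Gm5416* and -3.80 for *Kng2*. Of the other 5 genes 1 was altered and higher, 0 were lower and 4 were not altered, against 10.3% altered over all genes, and their median log2FC was 0.55. *Cstb*, the gene of stefin B, the other intracellular inhibitor of this type, rose from 101 ± 55.5 to 257 ± 32.4 CPM (SD, n = 6 each), a log2FC of 1.34 (standard error 0.26, edgeR quasi-likelihood test, adjusted p = 0.00487). Its call was lost with female mice only, at a log2FC of 1.21. *Cst6*, the gene of cystatin M/E, a secreted inhibitor of the upper epidermis, had means of 694 ± 849 (WT) and 2125 ± 397 CPM (Pparg-/-epi). It was not altered (log2FC 1.61, standard error 0.53, adjusted p = 0.059), and WT replicate 2 alone was at 2416 CPM, without which the log2FC was 2.59 and the gene was altered. *Cst3*, the gene of cystatin C, had a log2FC of -0.35 (standard error 0.12, adjusted p = 0.0793).

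Genes for the kinds of protease that cystatins as a family inhibit were taken from the same fit. Of 19 papain-family cathepsin and legumain genes 11 were listed, and 1 was altered and higher, 1 altered and lower and 9 not altered, with a median log2FC of 0.23. Over all genes 10.3% were altered. Without WT replicate 2 the altered genes of this list numbered 5. *Ctsc*, the gene of cathepsin C, which activates granule serine proteases, rose from 48.2 ± 19.9 to 94.3 ± 21.2 CPM (log2FC 0.97, edgeR quasi-likelihood test, adjusted p = 0.0176), a call that was lost among female mice alone at a log2FC of 1.08. *Ctso* fell from 28.1 ± 6.01 to 15.9 ± 2.47 CPM (log2FC -0.82, adjusted p = 0.00437), also a call lost among female mice alone (-0.67). *Ctsl*, the gene of cathepsin L and a main stefin target, had a log2FC of 0.47 (standard error 0.09, adjusted p = 0.00351), which passed the p threshold but not the size required. *Ctsb* had 0.44 (standard error 0.29), or 0.80 and altered without WT replicate 2, and *Ctsh* 0.17 (standard error 0.10).

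Since stefin A genes are also transcribed in neutrophils, the listed neutrophil markers were set beside them. Of 22 markers 8 were listed, with summed levels of 135 to 264 CPM (WT) and 154 to 217 CPM (Pparg-/-epi). *Cxcr2* (log2FC 3.55) and *Lcn2* (log2FC 2.81) were above 0.5 CPM in 3 of 6 WT and 6 of 6 Pparg-/-epi mice, so they entered the table through the latter group and are given without a test. Of the other 6 markers 2 were altered and higher, 2 were altered and lower and 2 were not altered. Over all genes 5.19% were altered and higher and 5.08% altered and lower. Those that rose were the calgranulin genes *S100a8* (log2FC 2.74, edgeR quasi-likelihood test, adjusted p = 0.00165) and *S100a9* (2.74, adjusted p = 0.00403), and *Lcn2* and both of these are also expressed by keratinocytes. *Mmp9* (-1.0, adjusted p = 0.0039) and *Il1r2* (-0.94, adjusted p = 0.018) fell. *Csf3r* (1.14, adjusted p = 0.0688) and *Padi4* (1.52, adjusted p = 0.314) were not altered, but without WT replicate 2 both were, at log2FC of 1.46 and 4.26. *Cxcr2* was at 2.88, 1.28 and 0.948 CPM in WT males, at 0.106, 0 and 0.252 CPM in WT females and at 7.57 to 13.9 CPM in Pparg-/-epi mice. Of the 8 listed markers only *Cxcr2* had every WT male above every WT female, which was so for 5.24% of all genes. Its WT female libraries held 2, 0 and 4 counts, near the floor of 3 counts. The 14 unlisted markers were not analysed here, and the part of neutrophils in the stefin levels was not tested.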

How the data were processed

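The authors aligned paired-end reads (75 bases) to mm10 with STAR 2.5.2b, per the labels, kept uniquely placed reads of good quality and assigned them to genes with featureCounts (Subread 1.5.1). The deposited values are these unnormalized counts, besides the exonic length of each gene, and 2800 blank rows were dropped. Columns for 2 Pparg-/-epi mice were assigned through their titles, the design text and the study's supplement.

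Counts were scaled by TMM and compared with edgeR 4.0.16 (quasi-likelihood test, genotype as the only term, Benjamini-Hochberg adjustment over 14533 genes). Sex contrasts used fits with genotype and sex. Likelihood ratio, DESeq2 1.42.0, other scalings, covariates and left-out mice were alternatives. Standard errors are the log2FC divided by the root of F. CPM use TMM-scaled totals, and correlations used log2 CPM with a prior count of 2. In simulated counts of 14533 genes, 96 of 114 genes with 4-fold genotype changes were found, and 62 of 90 with 4-fold changes between WT males and females. Among all 200 changed genes, 146 were found with 5 false calls for genotype. Between WT males and females 93 of 200 were found with 10 false calls. Each replicate was 1 mouse.

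The members, the gene lists and the rule for naming genes were chosen with earlier results of these data known. Genes named were the members, altered genes and the 3 of highest mean CPM in the cystatin and cathepsin lists, the listed neutrophil markers, altered or adjacent neighbors, and the 5 genes most like the members.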

Additional observations from a re-analysis of the deposited data

Results flagged for a closer look

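Gaps between 1 mouse and the rest of its group were tested on log2 CPM with Dixon's criterion for the members and the other named genes. Of 68 groups tested 5 had such a gap, and chance gives about 1 in 20 groups. None of the members had one. WT replicate 2 stood above the other WT mice for *Cstb* (212 CPM), *Cst6* (2416 CPM) and *Padi4* (53.2 CPM). WT replicate 1 stood below the other WT mice for *Mmp9* (15.8 CPM), and Pparg-/-epi replicate 11 stood below its group for *Iqcb1* (4.52 CPM).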

How the results depend on the processing

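The number of members altered by genotype was 5 in every fit except that with the RNA integrity number as a covariate (6, with *Csta1* at a log2FC of 0.81) and that for males (2), where *Stfa1* (2.08), *BC117090* (2.10) and *Stfa2* (2.28) were no longer altered. With sex as a covariate every member's log2FC was above that of the main fit. It was 4.83 for *Stfa3*, 4.39 for *BC100530*, 3.44 for *Stfa1*, 3.36 for *BC117090*, 3.02 for *Stfa2* and 0.62 for *Csta1*, which was not altered. With the RNA integrity number the log2FC was below the main fit only for *Stfa3* (4.19). It was 4.04 for *BC100530* and 3.49 for *Stfa1*. The fit of 4 means by genotype and sex, which gives the contrasts for males, for females and within WT, was chosen after seeing the data. The number of altered genes was 1116 to 2249 over left-out mice (2249 without WT replicate 2), 651 with female mice only and, in the fit of 4 means, 954 among females and 227 among males. Of the other cystatins 0 were altered among males. Of the cathepsins and legumain 0 were altered among females in both fits, 1 among males, and 2 to 5 over left-out mice (5 without WT replicate 2). *Cd86* had a log2FC of -0.28 with female mice only (-0.28 in the fit of 4 means) and -0.06 to 0.27 over left-out mice, negative only without Pparg-/-epi replicate 12 (-0.0586).

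For males against females within WT, 4 members were altered with the likelihood ratio test, among 25 genes called, against 5 genes in the main fit. Over left-out mice the number of altered members was 0 to 2. It was 2 without WT replicate 1 (6 genes called) and 0 without WT replicate 2, 4 or 6 (1 gene called in each). The log2FC of *BC100530* was 2.47 to 3.08 over left-out mice. Library totals in place of TMM factors moved the median log2FC of all genes for sex by -0.11 and changed no call of a member. Of the 5 genes most like the members, 1 to 5 stayed among the first 5 over left-out mice, with 1 left without WT replicate 1. The causes of these changes were not tested. No paired analysis was possible because the groups share no replicate numbers. Nor could the leading part of the mouse names, whose meaning is not given in the sources used here, serve for pairing. It recurs across the groups for only 1 WT and 1 Pparg-/-epi mouse. For all other mice it differed between the groups, so genotype and whatever that part stands for cannot be told apart in them. The depth limits *BC117090* and *Gm5416*, whose WT libraries held few reads.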
